A study of Mus musculus with 6 samples.

Results

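Integrins and the adaptors that tie them to the actin cytoskeleton were followed through the cells of the mouse aortic root. The 36 genes were a named list, chosen without any threshold on their values: 22 integrin subunits, of which 15 are alpha and 7 are beta subunits, and 14 adaptor genes of the focal adhesion. All 36 were found among the 55402 features of the deposited matrices, and each had at least 1 unique molecular identifier (UMI, a tag that marks 1 captured RNA molecule). Their use by cell class is described first, and then how they differed with genotype and with smooth muscle modulation in Myh11-positive cells.

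An integrin is a pair of an alpha and a beta subunit that spans the cell membrane and grips the extracellular matrix, and the alpha subunit largely sets which ligand is bound. Inside the cell, talin and kindlin bind the beta tail and switch the receptor on, vinculin strengthens the link to actin, and integrin-linked kinase, PINCH and parvin form a scaffold at the same place. Focal adhesion kinase, paxillin and the docking protein p130Cas carry the signal onward. In the arterial wall these complexes couple the contractile apparatus of the smooth muscle cell (SMC) to the elastic matrix, of which fibrillin-1, the product of Fbn1, is a part. SMC modulation is the loss of contractile gene expression with a gain of matrix genes.

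The 6 libraries came from male mice aged 24 weeks, in 3 genotypes. The first group carried the C1041G missense allele of Fbn1 on 1 chromosome (C1041G/+, labelled Marfan syndrome) together with a floxed Klf4 allele, the second carried Fbn1 C1041G/+ with wild type Klf4, and the third were littermate controls with wild type Klf4. All 3 groups carried the tdTomato trace of the SMC lineage. The sources used here name neither the promoter that drove the recombinase nor the agent that induced it. Aortic roots of 4 animals per group were pooled, digested and sorted into a tdTomato-positive and a tdTomato-negative fraction, and each fraction gave 1 library of 3' version 3 droplet chemistry. Each group was therefore 1 library. No value below has a replicate error, no test was run, and a ratio compares libraries of pooled animals.

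The lineage-positive libraries held 95250397 UMIs in 8943 barcodes for the group labelled Klf4-floxed, 87881816 in 22905 for Marfan and 71583972 in 8218 for control. The lineage-negative libraries held between 47750360 and 81181913 UMIs. After filtering, 39483 cells were kept and fell into 23 clusters, built without the 36 genes. Between 9 and 60 barcodes were shared by any pair of libraries. Klf4 had a counts-per-million (CPM) level of 113 in the Myh11-positive cells of the library labelled Klf4-floxed, against 42.5 CPM in Marfan, against 24.7 CPM in control. The 3' tags need not lie in the floxed exons, which the labels do not name, so this level checks nothing of the deletion, and "Klf4-floxed" below is the label of a library. Fluorophore transcripts (feature TDT) stood at 226, 413 and 343 CPM in the lineage-positive libraries of the Klf4-floxed, Marfan and control groups, and between 3.12 and 6.14 CPM in the lineage-negative ones.

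The Myh11-positive population comprised lineage-positive cells with at least 1 UMI of Myh11, the smooth muscle myosin heavy chain, outside clusters named as a cell class other than SMC, modulated SMC or pericyte. It held 5805 cells in the library labelled Klf4-floxed, 10125 in Marfan and 5084 in control. The median depth was 13014 UMIs per cell in the library labelled Klf4-floxed, 2315 in Marfan and 11439.5 in control. A cluster of shallow cells held 5064 of these cells in Marfan, 243 in the library labelled Klf4-floxed and 130 in control. Levels were therefore taken from summed UMIs, so that deep cells weigh more. The cells called modulated came from a cluster led by Timp4, Nrgn and Esm1, with Fn1 and Tnfrsf11b among its leading genes. On the marker sets this cluster scored 0.85 for SMC and 0.55 for modulated SMC, and its leading genes gave it the name. Modulated cells numbered 1124 in the library labelled Klf4-floxed (19.4%), 1030 in Marfan (10.2%) and 70 in control (1.38%). They held 23.0%, 20.1% and 1.60% of the UMIs of the population.

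The genes differed in the cell class that held most of them. Among the 10 named classes, the highest level fell in SMC for 6, in pericytes for 6, in mesothelial cells for 5, in neutrophils for 5, in lymphatic endothelium for 4, in macrophages or monocytes for 3, in valve interstitial cells or chondrocytes for 3, in endothelium for 2 and in modulated SMC for 2. For 21 of the 36 genes the library ranges of the highest class and the next overlapped, and for 15 they did not. A ranking below covers named classes only, since for 15 genes an unnamed cluster stood above the highest named class. Class levels are pooled over the libraries of the fraction that held the class. UMI counts from 3' ends do not scale with transcript length, so levels of different genes can be set side by side as molecules captured. How well each 3' end was captured is not known.

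**Figure D1:**
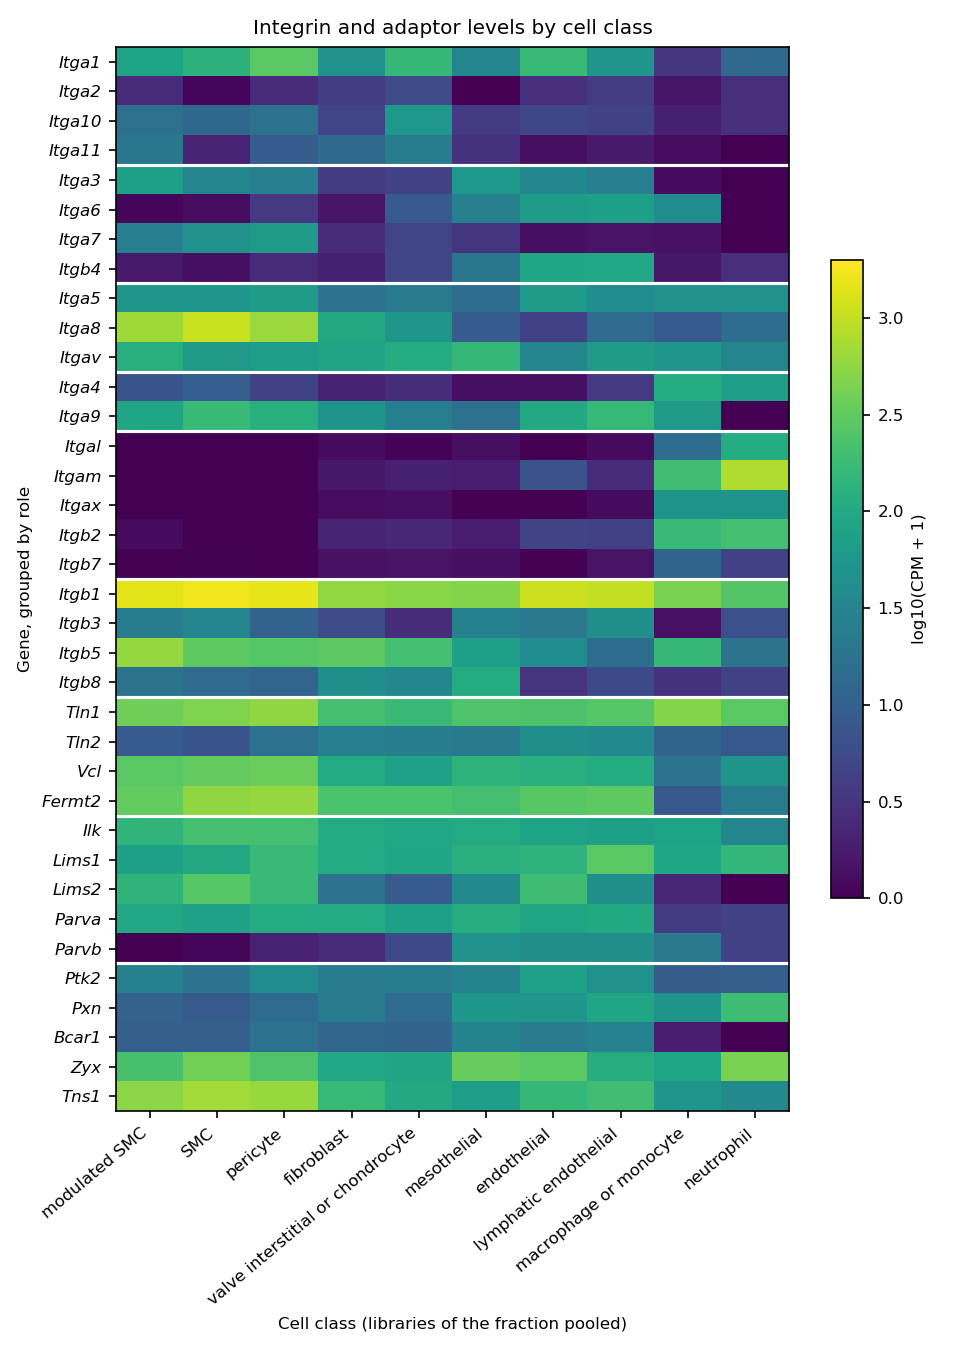
Level of each of the 36 genes in each cell class, as log10(CPM + 1) of UMIs pooled over libraries, with genes down the page in their role groups and classes across. Bright cells mark high levels: Itgb1 is high in SMC at 1675 CPM and lowest in neutrophils at 257 CPM, whereas the leukocyte subunits are highest in macrophages and neutrophils.

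Of the RGD-binding alpha subunits, which recognise the arginine-glycine-aspartate motif of fibronectin and related ligands, Itga8 was the one of muscle. Itga8 stood at 974, 1001 and 1111 CPM in the SMC class of the Klf4-floxed, Marfan and control libraries. In modulated SMC it stood at 655, 710 and 688 CPM, so the library ranges of the 2 classes did not overlap. It reached 635 CPM in pericytes, 98.5 CPM in fibroblasts and 3.37 CPM in endothelium. Itgav, which pairs with several beta subunits and serves in the activation of latent TGF-beta, was highest in mesothelial cells at 157 CPM and next in modulated SMC at 116 CPM. Itga5, the fibronectin receptor subunit, stood at 64.2 CPM in pericytes and 57.6 CPM in endothelium, whose library ranges overlapped. It stood at 136 CPM in cluster 4, an unnamed cluster led by Igfbp2 and P2rx1.

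The 4 collagen-binding alpha subunits differed in place. Itga1 was highest in pericytes at 286 CPM and in endothelium at 171 CPM. Itga10 belonged to the valve interstitial or chondrocyte class, at 57.0 CPM, with pericytes next at 16.6 CPM and no overlap between libraries. Itga11, a receptor for fibrillar collagen, stood at 23.3 CPM in the valve class and at 18.9 CPM in modulated SMC, with overlapping library ranges. Itga2 stood at 4.63 CPM in the valve class, its highest among the named ones, and at 22.9 CPM in cluster 22, an unnamed cluster led by Chgb and Dct, from 16 UMIs.

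Of the laminin-binding subunits, Itga3 was highest in modulated SMC at 74.9 CPM and in mesothelial cells at 55.8 CPM. Itga7, the muscle laminin receptor subunit, stood at 58.2 CPM in pericytes and 46.3 CPM in SMC. Itga6 and its partner Itgb4 were highest in endothelium among the named classes: Itga6 stood at 71.2 CPM in lymphatic and 64.7 CPM in other endothelium. In macrophage cluster 9, led by Cd72 and Rgs1, Itga6 stood at 51.8, 44.4 and 51.7 CPM in the Klf4-floxed, Marfan and control libraries. Itgb4 stood at 93.6 and 85.7 CPM in the same classes and at 0.356 CPM in SMC. Itga9, which binds tenascin and osteopontin, stood at 168 CPM in SMC and 162 CPM in lymphatic endothelium. Among the named classes Itga4, its close relative and the partner of VCAM-1, was highest in blood cells, at 105 CPM in macrophages and 67.3 CPM in neutrophils. In the unnamed cluster 22 Itga4 stood at 45.1, 222 and 83.9 CPM in the Klf4-floxed, Marfan and control libraries, from 15, 42 and 15 UMIs.

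The leukocyte subunits followed their name. Itgam, the alpha chain of Mac-1, stood at 805 CPM in neutrophils and 193 CPM in macrophages. Itgal, the alpha chain of LFA-1, stood at 108 and 14.5 CPM in the same classes. Itgb2, the beta chain they share, stood at 204 and 166 CPM. Of the 208 neutrophils, 201 came from the Marfan library and 7 from control. Itgax, the alpha chain also called CD11c, stood at 50.3 CPM in macrophages and 49.6 CPM in neutrophils. Itgb7 reached 10.4 CPM in the macrophage class and 99.3 CPM in cluster 14, an unnamed cluster led by Ly6c2 and Ms4a4c.

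Among the other beta subunits, Itgb1, the partner of most alpha chains here, stood at 1675 CPM in SMC and 1514 CPM in pericytes. Itgb5, a partner of alpha v, was 1 of the 2 genes that were highest in modulated SMC among the named classes, with Itga3. It stood at 624, 588 and 482 CPM in modulated SMC of the Klf4-floxed, Marfan and control libraries, against 334, 306 and 286 CPM in the SMC class. In the lineage-positive cells of cluster 8, an unnamed cluster led by Penk and Fhl2, it stood at 700 CPM. Itgb3 was highest in lymphatic endothelium at 42.9 CPM and next in SMC at 31.9 CPM. Itgb8 was highest in mesothelial cells at 106 CPM and in fibroblasts at 42.7 CPM.

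Adaptors were spread more widely. Tln1, the general talin, stood at 568 CPM in pericytes and 486 CPM in macrophages. Its paralogue Tln2 stood at 41.5 CPM in endothelium and 6.23 CPM in SMC, and at 90.0 CPM in cluster 22, from 63 UMIs. Fermt2, or kindlin-2, and vinculin (Vcl) were high in mural cells, at 597 and 355 CPM in pericytes. The PINCH genes differed in their leading classes but overlapped. Lims2 was highest in SMC at 277 CPM and in endothelium at 185 CPM, and Lims1 in lymphatic endothelium at 285 CPM and in pericytes at 167 CPM. Pericytes held Lims2 at 172, 187 and 116 CPM in the Klf4-floxed, Marfan and control libraries, and endothelium held Lims1 at 141, 129 and 133 CPM. Ilk stood at 214 CPM in SMC, and Tns1, a tensin that binds actin and integrin tails, at 694 CPM. Parva and Parvb were both highest in mesothelial cells, at 112 and 47.0 CPM. Zyx, the stretch-responsive zyxin, stood at 430 CPM in neutrophils and 391 CPM in SMC, and Pxn at 189 CPM in neutrophils. Ptk2, focal adhesion kinase, was highest in endothelium at 75.6 CPM, and Bcar1, p130Cas, in mesothelial cells at 28.7 CPM.

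Within Myh11-positive cells, 20 of the 36 genes reached at least 20 CPM in a library, 7 lay between 5 and 20 CPM and 9 stayed under 5 CPM. The 9 were Itga2, Itga6, Itgal, Itgam, Itgax, Itgb2, Itgb4, Itgb7 and Parvb. The order began with Itgb1, at 1632, 1792 and 1588 CPM in the Klf4-floxed, Marfan and control libraries. Itga8 followed at 893, 892 and 1081 CPM. Together they form alpha 8 beta 1, a receptor of nephronectin and fibronectin. Tns1 came next at 658, 647 and 672 CPM, nearly level between libraries.

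Kindlin-2 (Fermt2) stood at 486, 485 and 567 CPM and talin-1 (Tln1) at 455, 471 and 418 CPM in the Klf4-floxed, Marfan and control libraries. Like Itgb5, Zyx and Vcl, they were within 1.5-fold between any pair of genotypes. Itgb5 stood at 393, 364 and 295 CPM, Zyx at 342, 319 and 379 CPM, and Vcl at 326, 341 and 300 CPM. Below them came Lims2 at 230, 249 and 272 CPM, Ilk at 195, 205 and 208 CPM and Itga9 at 149, 143 and 167 CPM. Itga1 stood at 113, 118 and 135 CPM, Lims1 at 95.3, 93.9 and 88.7 CPM, and Parva, an actin-binding parvin, at 82.1, 85.6 and 73.5 CPM. The last of the genes above 20 CPM were Itga7 at 41.7, 47.4 and 42.8 CPM, Itgb3 at 27.8, 28.8 and 33.9 CPM, and Ptk2 at 20.8, 19.6 and 17.8 CPM, with Itgav, Itga5 and Itga3 described with genotype below.

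**Figure D2:**
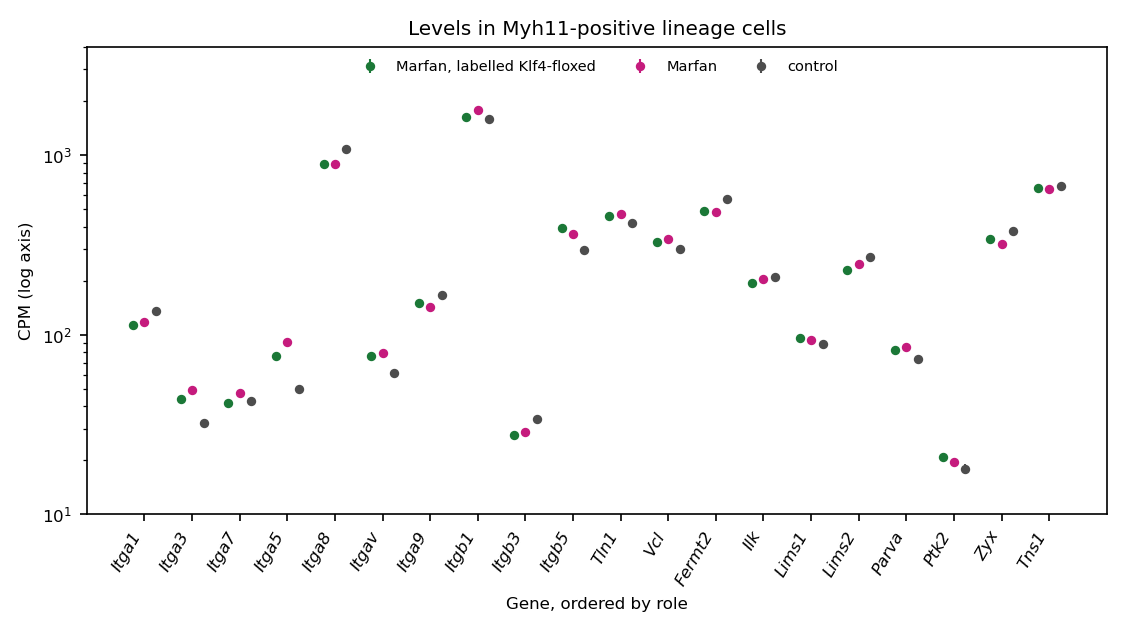
Level in Myh11-positive cells of the 20 genes with at least 20 CPM in a library, in CPM on a log axis. Each has 1 point per library (Klf4-floxed, Marfan, control) and exact Poisson 95% intervals, which cover counting error only. Most genes have their 3 points close together, and Itgb1 leads at 1588 to 1792 CPM. Itga5 stands at 76.1 and 91.6 CPM in the Klf4-floxed and Marfan libraries, against 50.1 CPM in control.

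Modulated cells kept Itgb1 and Itga8 as their most abundant integrins and differed from other cells in several less abundant ones. Itgb5, Itgb8, Itga3, Itgav and Itga11 were higher in modulated cells, and Lims2, Zyx, Itga7, Fermt2 and Itga9 were lower. A ratio of at least 1.5-fold was counted, among genes with at least 5 CPM in either of the cell groups compared. In the library labelled Klf4-floxed 6 of 27 genes were counted as higher and 7 as lower, beside 8.53% and 8.86% of all genes. In Marfan 5 and 5 of 27 were counted, beside 7.96% and 7.67%. In control, where 70 modulated cells give wide intervals, 3 and 5 of 26 were counted, beside 15.9% and 12.4%. Over the list the log2 ratio had a median of -0.31, -0.27 and -0.07 in the Klf4-floxed, Marfan and control libraries, beside -0.09, -0.06 and 0.02 over all genes. Of the 26 genes measured in all 3 libraries, 8 lay above 0 in each, 12 below 0 in each and 6 differed in sign.

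The promoters of 5 genes are shown: Itgb5 and its partner Itgav, which were higher in modulated cells, Itga8, the most abundant alpha subunit, and Fermt2 and Vcl, the genes of the list with a CArG box. Each line gives the 250 bases before the RefSeq start in assembly GRCm38.p6, read 5′ to 3′ on the gene's strand. For Fermt2 the last 53 bases, which lie inside the gene in the GENCODE annotation, are left out. Capitals mark a CArG box, the binding element of serum response factor, or the element GGAATG of TEAD factors.
Itgb5, chr16:33829415-33829664, + strand: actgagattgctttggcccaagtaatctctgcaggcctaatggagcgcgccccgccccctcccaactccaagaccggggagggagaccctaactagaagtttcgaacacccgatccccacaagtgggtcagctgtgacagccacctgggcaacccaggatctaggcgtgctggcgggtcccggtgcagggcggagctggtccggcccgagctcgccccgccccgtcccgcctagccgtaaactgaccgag
Itgav, chr2:83724147-83724396, + strand: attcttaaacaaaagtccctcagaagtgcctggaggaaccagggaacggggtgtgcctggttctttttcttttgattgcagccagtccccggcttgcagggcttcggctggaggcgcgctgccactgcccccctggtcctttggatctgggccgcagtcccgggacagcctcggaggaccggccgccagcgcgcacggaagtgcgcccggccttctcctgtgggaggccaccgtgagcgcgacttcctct
Fermt2, chr14:45530119-45530315, − strand: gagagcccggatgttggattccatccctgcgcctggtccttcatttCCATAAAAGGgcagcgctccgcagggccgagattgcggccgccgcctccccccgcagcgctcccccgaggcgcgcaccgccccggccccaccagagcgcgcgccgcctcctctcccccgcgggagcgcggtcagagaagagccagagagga
Vcl, chr14:20929148-20929397, + strand: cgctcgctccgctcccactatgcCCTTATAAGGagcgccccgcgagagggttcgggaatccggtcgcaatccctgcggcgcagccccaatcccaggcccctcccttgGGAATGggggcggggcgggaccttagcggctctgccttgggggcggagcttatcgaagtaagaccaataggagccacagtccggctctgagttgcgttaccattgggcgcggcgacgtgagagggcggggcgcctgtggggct
Itga8, chr2:12301945-12302194, − strand: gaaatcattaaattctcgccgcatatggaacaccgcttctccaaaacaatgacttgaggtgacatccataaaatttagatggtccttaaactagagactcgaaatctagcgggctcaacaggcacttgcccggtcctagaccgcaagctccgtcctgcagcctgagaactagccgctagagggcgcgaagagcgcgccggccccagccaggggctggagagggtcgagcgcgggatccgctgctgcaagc
Of the 36 genes, 25 had a promoter entry. A CArG box lay in 2 of them, Fermt2 and Vcl, beside 1.47% of 32851 promoters of that length searched on both strands. GGAATG lay in 3, Itga10, Itgb1 and Vcl, beside 12.6%. The AP-1 element TGANTCA lay in 2, Itgax and Zyx, beside 6.75%. No motif overlapped another in the lines shown. A match describes letters in this window and no more.

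Itgb5, whose promoter above holds none of the motifs searched, stood at 621 CPM in modulated and 325 CPM in other cells of the library labelled Klf4-floxed. In Marfan it stood at 588 CPM in modulated and 307 CPM in other cells, and in control at 483 and 292 CPM. The 3 modulated values lay above the 3 others, with log2 ratios of 0.93, 0.94 and 0.73. Its alpha partner Itgav stood at 113, 121 and 90.4 CPM in modulated cells of the Klf4-floxed, Marfan and control libraries, against 65.1, 68.6 and 60.4 CPM in other cells. The groups did not overlap, and the log2 ratios were 0.79, 0.81 and 0.58 with a 95% interval of 0.25 to 0.89 in control. The second alpha v partner, Itgb8, was scarce but ran the same way, at 15.02, 20.4 and 29.4 CPM in modulated cells against 9.09, 10.4 and 15.2 CPM in other cells. Its values overlapped between cell groups across libraries but not within one.

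Itga11 showed the widest ratio. It stood at 21.1 CPM in modulated and 2.36 CPM in other cells of the library labelled Klf4-floxed (log2 ratio 3.16, 95% interval 2.87 to 3.45). In Marfan it stood at 16.0 CPM in modulated and 2.40 CPM in other cells (log2 ratio 2.74, 2.41 to 3.07). In both libraries it passed the 5 CPM filter through the modulated cells alone, and in control it passed in neither. Itga3 stood at 75.4, 77.6 and 45.7 CPM in modulated cells of the Klf4-floxed, Marfan and control libraries, against 34.4, 41.7 and 31.8 CPM in other cells. Its groups did not overlap. Itga10 had log2 ratios of 0.50, 0.55 and 0.56, under the fold counted. Of the adaptors, Ptk2 alone was counted as higher: it stood at 28.5, 25.5 and 27.2 CPM in modulated cells against 18.5, 18.1 and 17.7 CPM, and passed 1.5-fold in the Klf4-floxed and control libraries.

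**Figure D3:**
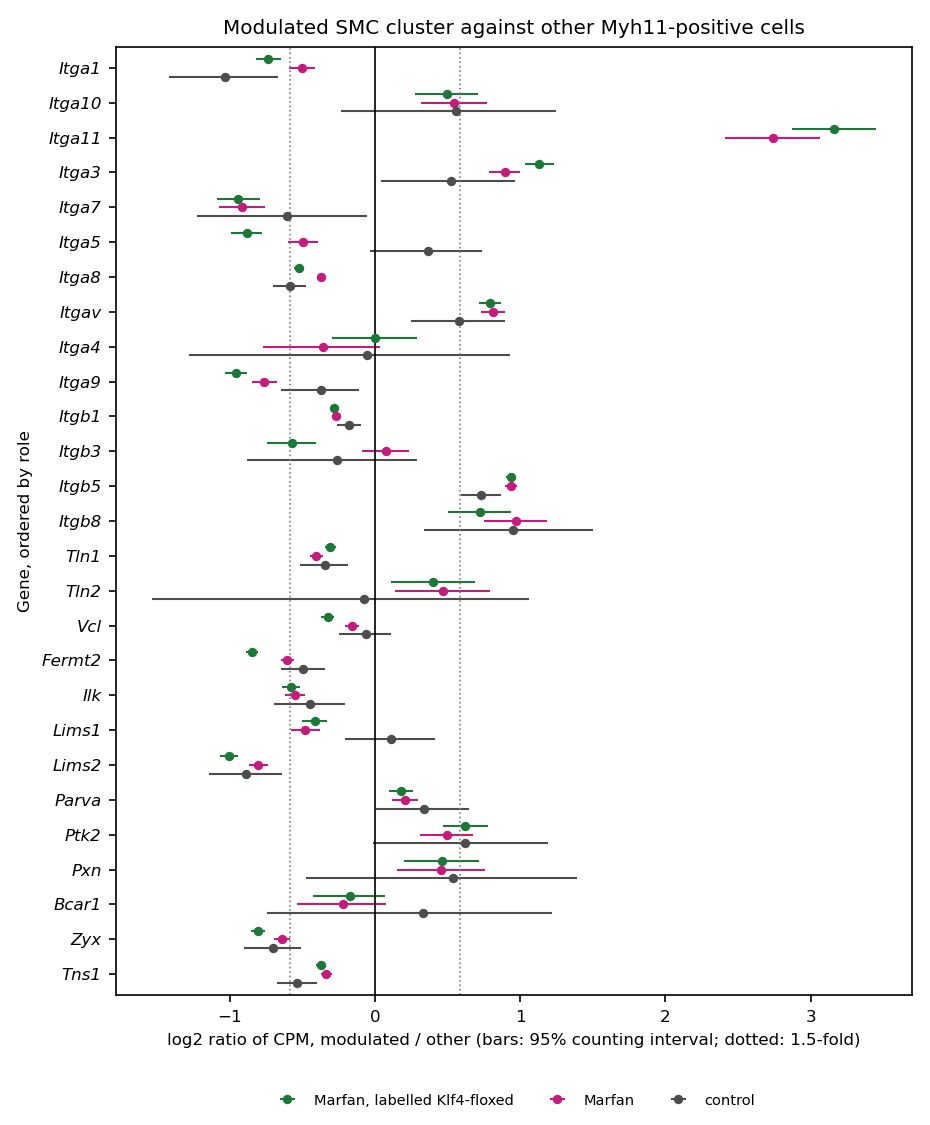
Log2 ratio of modulated over other Myh11-positive cells for each gene with at least 5 CPM in either group, with 1 point per library and exact conditional binomial 95% intervals, which cover counting error only. Points right of 0 are higher in modulated cells: Itga11 lies farthest right at 3.16 and 2.74, Itgb5 at 0.93, 0.94 and 0.73, and Lims2 lies left at -1.01, -0.80 and -0.89.

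Both adaptors and integrins were among the lower genes. Lims2, the PINCH gene highest in SMC, stood at 129, 156 and 148 CPM in modulated cells of the Klf4-floxed, Marfan and control libraries, against 260, 272 and 274 CPM in other cells. Zyx stood at 217, 221 and 235 CPM in modulated cells, against 379, 344 and 382 CPM. In both genes the modulated values of all 3 libraries lay below the others, with log2 ratios of -1.01, -0.80 and -0.89 for Lims2 and of -0.81, -0.64 and -0.70 for Zyx. Fermt2 stood at 301, 343 and 405 CPM in modulated cells against 541, 521 and 570 CPM, and passed 1.5-fold in the Klf4-floxed and Marfan libraries. Ilk had log2 ratios of -0.58, -0.55 and -0.45, Tln1 of -0.31, -0.40 and -0.35, and Tns1 of -0.37, -0.33 and -0.54, all below 0 and short of 1.5-fold. Vcl, with log2 ratios of -0.32, -0.16 and -0.06, came closest to level in Marfan and control of the adaptors named here.

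Among the integrins that were lower, Itga7 stood at 24.4, 27.8 and 28.3 CPM in modulated cells of the Klf4-floxed, Marfan and control libraries, against 46.9, 52.4 and 43.1 CPM in other cells. The control value rests on 26 UMIs in modulated cells (log2 ratio -0.61, 95% interval -1.22 to -0.05), and it lay above 0, at 0.20, when cells were thinned to 2000 UMIs. Itga9 stood at 86.6, 91.8 and 130 CPM in modulated cells against 168, 156 and 168 CPM. Itga1 stood at 75.0, 88.4 and 66.4 CPM in modulated cells against 125, 125 and 136 CPM, and passed 1.5-fold in the Klf4-floxed and control libraries. Itga8 was lower by less, at 667, 724 and 724 CPM in modulated cells against 960, 934 and 1087 CPM, and passed 1.5-fold in control alone. Itgb1 had log2 ratios of -0.28, -0.27 and -0.18.

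Itga5 differed in direction between the libraries. It stood at 46.1 CPM in modulated and 85.0 CPM in other cells of the library labelled Klf4-floxed (log2 ratio -0.88, 95% interval -0.99 to -0.78), and at 69.1 and 97.2 CPM in Marfan (-0.49, -0.60 to -0.39). In control it stood at 64.2 CPM in modulated and 49.8 CPM in other cells (0.37, -0.03 to 0.74). The difference between libraries was not tested. Cluster 4, unnamed but with all 12 SMC markers detected, held Itga5 at 128, 145 and 146 CPM in the Klf4-floxed, Marfan and control libraries. Igfbp2, a modulated SMC marker, and Acan, a valve or chondrocyte marker, were among its leading genes. This cluster made up 28.6% and 14.8% of Myh11-positive cells in the Klf4-floxed and Marfan libraries and 4.31% in control. Of their UMIs, from which levels were taken, it held 31.6%, 28.4% and 4.84%. It counted among the other cells.

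Markers of other cells moved with modulation, and their part in these ratios was not tested. The summed level of the 12 SMC markers was 21838, 25006 and 21324 CPM in modulated cells of the Klf4-floxed, Marfan and control libraries, against 52282, 56956 and 48450 CPM in other cells. The 14 modulated SMC markers summed to 7287, 8581 and 5251 CPM, against 2225, 2797 and 1019 CPM. The 12 fibroblast markers, 2 of which are also on the modulated list, summed to 1893, 1838 and 3211 CPM, against 1421, 1787 and 1704 CPM, and 11, 12 and 9 of them had a UMI in modulated cells. Pi16, Dpep1 and Clec3b were at 0 in modulated cells of control. The 9 valve or chondrocyte markers summed to 369, 635 and 804 CPM, against 80.0, 161 and 99.2 CPM, with 8, 9 and 5 of them detected and Chad, Col2a1 and Matn4 at 0 in modulated cells of control. T or NK cell markers were at 0 in the modulated cells of each library.

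Ordering cells by modulation gave courses that differed by gene and library. Cells thinned to 2000 UMIs were ranked by the UMIs of modulated SMC markers and divided into 5 equal parts per library, with 995 to 1136 cells in the lowest. Itgb5 stood at 283, 310, 389, 475 and 575 CPM from the lowest to the highest part of the library labelled Klf4-floxed. In Marfan it stood at 283, 301, 338, 409 and 517 CPM, and in control at 298, 277, 272, 308 and 400 CPM, where the lowest parts held at most 1 marker UMI per cell. Lims2 stood at 276, 275, 272, 230 and 161 CPM in the library labelled Klf4-floxed, at 290, 288, 274, 240 and 196 CPM in Marfan, and at 286, 297, 286, 294 and 237 CPM in control. Lims2 thus stayed near its level in the low parts and was lowest in the highest part of each library. Itgb5 climbed at each step in the Klf4-floxed and Marfan libraries, and in control only in the upper parts. Itga5 ran from 60.3 CPM in the lowest to 87.2 CPM in the highest part of the library labelled Klf4-floxed, against the direction of the modulated cluster there. It was highest in the fourth part of Marfan, at 111 CPM, with 85.0 CPM in the highest and 79.0 CPM in the lowest.

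**Figure D4:**
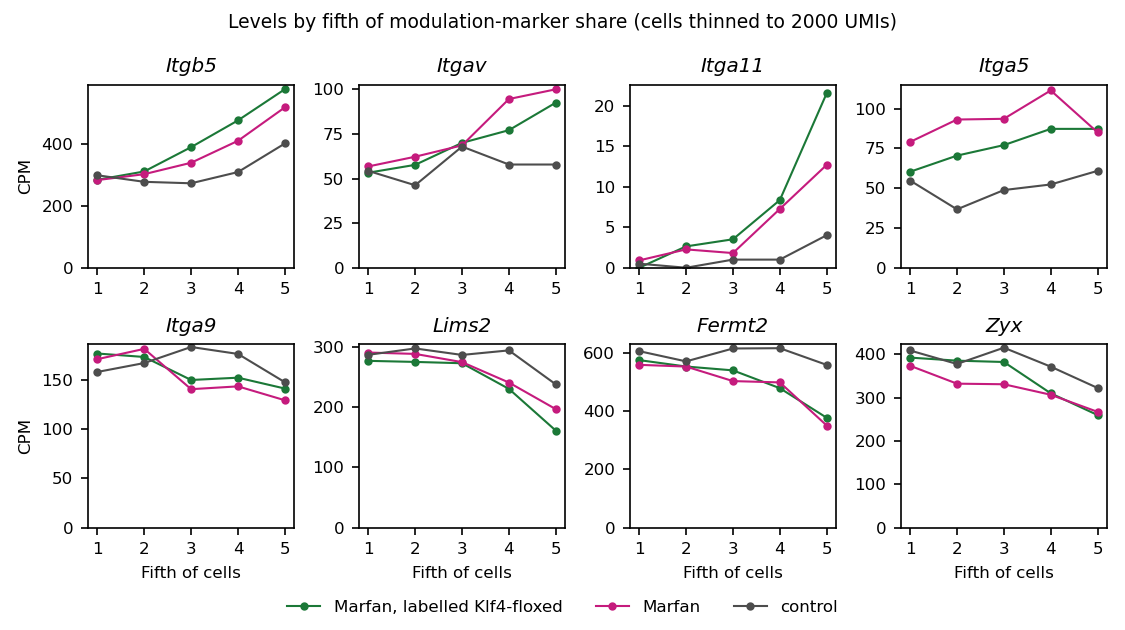
Level in CPM across 5 equal parts of the Myh11-positive cells, ordered by the UMIs of modulated SMC markers after thinning to 2000 UMIs per cell, with 1 line per library. Itgb5 climbs to 575, 517 and 400 CPM in the highest part of the Klf4-floxed, Marfan and control libraries, and Lims2 declines to 161, 196 and 237 CPM.

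Related genes outside the list placed these values in context. Of the 14 contractile genes, 14 were at least 1.5-fold lower in modulated cells of the Klf4-floxed and of the Marfan library and 12 in control, with medians of -1.68, -1.62 and -1.48. Of all genes, 8.86%, 7.67% and 12.4% were lower and 8.53%, 7.96% and 15.9% were higher in the Klf4-floxed, Marfan and control libraries. Most of the contractile genes, namely Myh11, Acta2, Tagln, Cnn1, Smtn, Lmod1, Mylk, Synpo2 and Des, are also markers by which SMC were named. Des, the intermediate filament desmin, had log2 ratios of -2.30, -3.31 and -2.86. Of the other focal adhesion genes, 4 of 38, 5 of 37 and 7 of 37 were higher and 14, 12 and 9 were lower in the Klf4-floxed, Marfan and control libraries. Ptk2b, the kinase Pyk2 that is the paralogue of Ptk2, stood at 24.5 CPM in modulated and 1.80 CPM in other cells of the library labelled Klf4-floxed. In Marfan its levels were 20.6 and 2.60 CPM. Flna, the actin crosslinker filamin A that binds integrin tails, had log2 ratios of -1.41, -1.20 and -1.18. Csrp1 was lower as well, with log2 ratios of -1.17 and -1.23 in the Klf4-floxed and Marfan libraries. Of the integrin ligands, 12 of 28, 13 of 27 and 13 of 27 were higher and 4, 3 and 1 were lower, although Fn1, Spp1, Vcam1 and Thbs1 are themselves markers of the modulated class.

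Marfan against control was the first genotype comparison, and it asked what the Fbn1 allele goes with in Myh11-positive cells. Itga11, Itga5 and Itga3 were higher in Marfan and Itga4 was lower, and no adaptor passed 1.5-fold. Thus 3 of 27 measured genes were counted as higher, beside 3.66% of all genes, and 1 as lower, beside 2.52%. In cells thinned to 2000 UMIs 1 of 26 was higher, beside 4.02%, and with each cell weighed alike 1 of 26, beside 3.87%. The list had a median of -0.02 on the log2 scale, where all genes had -0.07. It was 0.06 over 14 integrin subunits and -0.03 over 13 adaptors.

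Itga5 stood at 91.6 CPM in Marfan, against 50.1 CPM in control, from 6014 and 2880 UMIs (log2 ratio 0.87, 95% interval 0.81 to 0.94). It was higher in Marfan in the SMC class too, at 66.1 CPM against 45.5 CPM. Within cluster 4 it was level, at 145 CPM in Marfan, against 146 CPM in control, and in the modulated cluster alone the log2 ratio was 0.11. Itga3 stood at 49.0 CPM in Marfan, against 32.1 CPM in control (0.61, 0.53 to 0.69). In modulated SMC it stood at 76.6 CPM against 45.3 CPM, and in the SMC class at 37.2 CPM against 31.1 CPM.

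Itga11 stood at 5.15 CPM in Marfan, against 1.03 CPM in control, from 338 and 59 UMIs, and passed the 5 CPM filter through Marfan alone (2.33, 1.93 to 2.75). In modulated SMC it stood at 16.6 CPM in Marfan, from 229 UMIs in 1122 cells, against 3.94 CPM in control. The control value rests on 4 UMIs in 78 cells, with a counting interval of 1.07 to 10.1 CPM. Itga4 stood at 5.83 CPM in Marfan, against 9.05 CPM in control (-0.63, -0.83 to -0.44). Without the modulated cluster 1 gene of 26 was counted as higher, where 2.63% of all genes were, and 0 as lower, where 2.10% were. The share of modulated cells was 10.2% in Marfan and 1.38% in control, and their share of UMIs was 20.1% and 1.60%. The part of these shares in the counts was not tested.

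Several abundant genes shifted by less than 1.5-fold but by more than counting error. Itgb5 stood 0.30 above control on the log2 scale (95% interval 0.28 to 0.33) and Itgav 0.38 (0.31 to 0.44). Itga8 had a log2 ratio of -0.28 (-0.29 to -0.26), Zyx of -0.25 and Fermt2 of -0.23. Between modulated and other cells these 5 had the same directions. Itgb1, Tln1, Vcl and Parva had log2 ratios of 0.17, 0.17, 0.19 and 0.22, of which Parva had the same direction between modulated and other cells and Itgb1, Tln1 and Vcl the opposite one. With 1 library per genotype, none of these can be told apart from a difference between libraries.

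Marfan with floxed Klf4 against Marfan was the second comparison, and it asked what the Klf4 allele goes with. No gene of the list was counted: 0 of 27 were higher, beside 0.344% of all genes, and 0 were lower, beside 0.581%. The list had a median of -0.05 on the log2 scale, where all genes had 0.01. Among the wider ratios were those of Itga11, at 6.65 CPM in the library labelled Klf4-floxed and 5.15 CPM in Marfan (0.37, 95% interval 0.17 to 0.57), and of Itga5, at 76.1 CPM and 91.6 CPM (-0.27, -0.32 to -0.22). Itga4 and Itgb8 had log2 ratios of 0.29 and -0.25. Itga3 stood at 43.8 CPM in the library labelled Klf4-floxed and 49.0 CPM in Marfan, and Itgav at 76.0 and 79.1 CPM. The share of modulated cells was 19.4% in the library labelled Klf4-floxed and 10.2% in Marfan, although their shares of UMIs, 23.0% and 20.1%, lay closer.

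**Figure D5:**
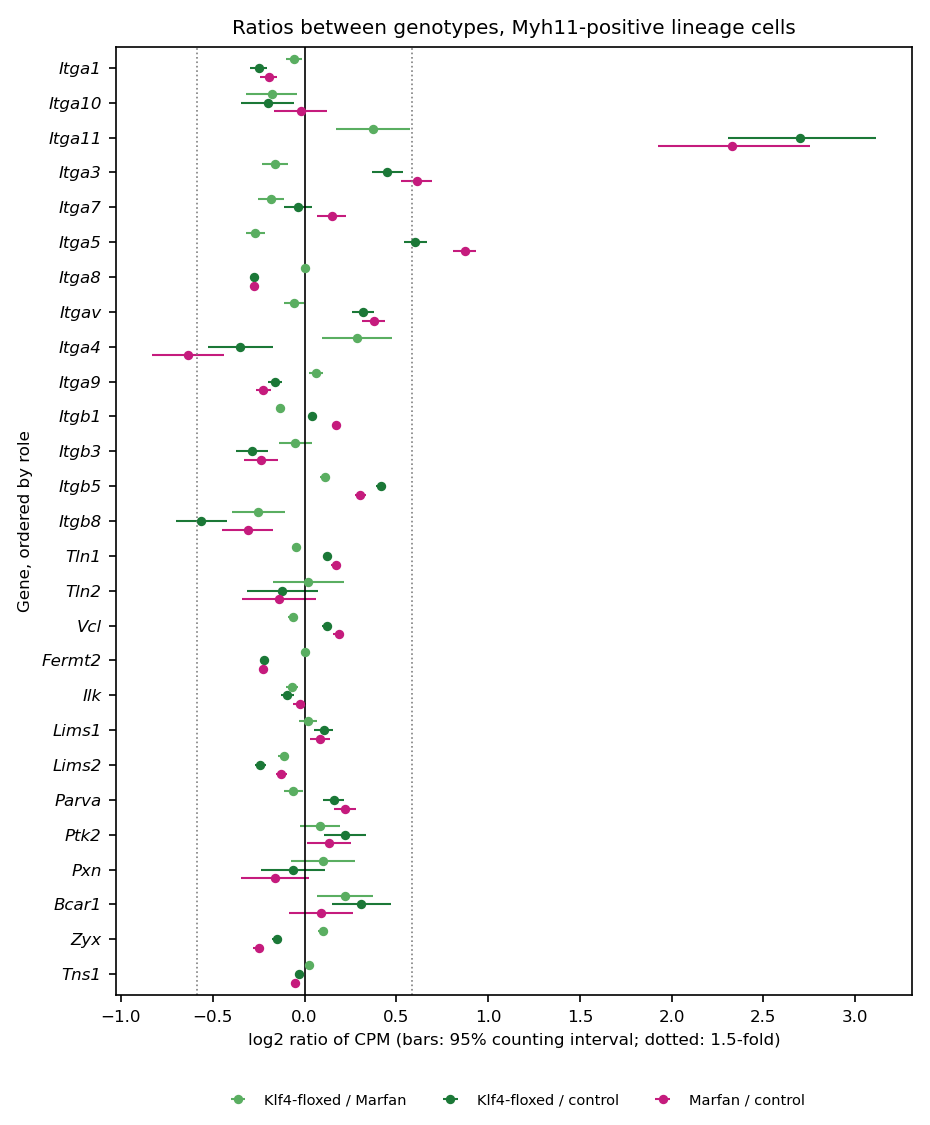
Log2 ratios between genotypes in Myh11-positive cells for each gene with at least 5 CPM in either library, with 1 colour per comparison and exact conditional binomial 95% intervals, which cover counting error only. Itga11 and Itga5 lie above 0 against control, at 2.70 and 0.60 in the library labelled Klf4-floxed and at 2.33 and 0.87 in Marfan, and most other genes lie within 0.5 of 0.

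Marfan with floxed Klf4 against control shares a library with each comparison above, so its values are set beside theirs and their likeness is not a result. Of 27 genes, 2 were counted as higher, beside 3.6% of all genes, and 0 as lower, beside 2.12%. They were Itga11, at 6.65 CPM in the library labelled Klf4-floxed and 1.03 CPM in control (2.70, 95% interval 2.31 to 3.11), and Itga5, at 76.1 CPM and 50.1 CPM (0.60, 0.54 to 0.67). Itga11 passed the 5 CPM filter through the Klf4-floxed library alone. Itga5 was not higher within the modulated cluster, where its log2 ratio was -0.48. Itga3 had a log2 ratio of 0.45, Itgb5 of 0.42 and Itgav of 0.32, and Itgb8 of -0.56 (-0.70 to -0.42).

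Genes of integrin ligands were set beside the list. Of 27 ligand genes measured, 10 were at least 1.5-fold higher in Marfan than in control, beside 3.66% of all genes. None of them, 0, was lower, beside 2.52%. Their median ratio was 0.46 on the log2 scale. Osteopontin transcripts (Spp1) stood at 199 CPM in Marfan, against 2.17 CPM in control, and Vcam1 at 334 CPM and 56.6 CPM. Fn1, fibronectin, stood at 882 CPM and 247 CPM. Thbs1, thrombospondin-1, had a log2 ratio of 2.07. These 4 are modulated SMC markers, and the modulated share was higher in Marfan. Of 37 other focal adhesion genes 3 were higher in Marfan, among them Sorbs2 at 188 CPM against 114 CPM and Actn4, an alpha-actinin, at 590 CPM against 388 CPM, and of 14 contractile genes 0 were higher or lower. Between the Klf4-floxed library and Marfan 1 of 28 ligands was higher, beside 0.344% of all genes, and 1 lower, beside 0.581%. Spp1 stood at 118 CPM in the library labelled Klf4-floxed and 199 CPM in Marfan. Between the Klf4-floxed library and control 11 of 28 ligands were higher, beside 3.6% of all genes, and 1 lower, beside 2.12%. Tnc, tenascin-C, had a log2 ratio of 1.84 there.

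In the lineage-negative libraries the fibroblast genes differed little. In fibroblasts 1 of 23 genes was higher in Marfan than in control, beside 3.28% of all genes, and 0 were lower, beside 3.14%. It was Itgb3, at 6.42 CPM in Marfan, against 3.12 CPM in control (log2 ratio 1.04, 95% interval 0.59 to 1.51), and it passed the 5 CPM filter through Marfan alone. Between the library labelled Klf4-floxed and Marfan 1 of 23 was higher, beside 1.22%, and 0 were lower, beside 1.9%. It was Itga8, at 139 CPM in the library labelled Klf4-floxed and 90.4 CPM in Marfan (0.62, 0.53 to 0.70), with 66.8 CPM in control. The 12 SMC markers summed to 1337, 1138 and 836 CPM in the fibroblasts of the Klf4-floxed, Marfan and control libraries, and their part in the Itga8 values was not tested.

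Macrophages differed between Marfan and control in 2 of 24 genes that were higher, beside 3.18% of all genes, and 6 that were lower, beside 8.91%. Itgb7, whose product pairs with alpha 4 or alpha E, stood at 18.5 CPM in Marfan, against 4.13 CPM in control (2.17, 95% interval 1.45 to 2.98), and at 2.88 CPM in the library labelled Klf4-floxed. It passed the 5 CPM filter through Marfan alone, against control and against the Klf4-floxed library. Itgax stood at 60.7 CPM in Marfan, against 35.5 CPM in control, and at 44.5 CPM in the library labelled Klf4-floxed. The class joined cluster 9, led by Cd72 and Rgs1, and cluster 11, led by Folr2 and F13a1, and Marfan held 672 and 319 cells of them against 139 and 233 in control. Within cluster 9 Itgax was level, at 86.3 CPM in Marfan, against 92.1 CPM in control (-0.09, -0.36 to 0.18), whereas Itgb7 stood at 25.3 CPM in Marfan, 3.97 CPM in control and 4.57 CPM in the library labelled Klf4-floxed. Dendritic cell markers summed to 6351 CPM in the macrophages of Marfan, 3905 CPM in control and 4128 CPM in the library labelled Klf4-floxed, with 8 of 8 detected, and their part was not tested.

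Of the genes lower in Marfan macrophages, Tns1 stood at 41.1 CPM in Marfan, against 91.6 CPM in control, but within cluster 9 at 14.1 CPM and 13.9 CPM. Itgal stood at 12.9 CPM in Marfan, against 23.1 CPM in control, and was lower within both clusters, at 17.1 CPM against 45.0 CPM in cluster 9 and at 2.96 CPM against 10.4 CPM in cluster 11. Itga8, Tln2, Fermt2 and Ptk2 were the others, all at or under 15.3 CPM. SMC markers summed to 150 CPM in these cells in Marfan and 343 CPM in control, and their part was not tested. Between the library labelled Klf4-floxed and Marfan 1 of 24 was higher, beside 3.23%, and 2 were lower, beside 2.59%. They were Tln2, at 12.9 CPM against 7.57 CPM, and Itgb7 and Fermt2.

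Endothelium was thin in control, with 41 cells, and its counts lay near the background. There 5 of 27 genes were higher in Marfan, beside 19.9% of all genes, and 7 were lower, beside 24%. Itga1 stood at 152 CPM in Marfan, against 284 CPM in control (-0.90, 95% interval -1.27 to -0.51), and Itga9 at 95.5 CPM and 43.1 CPM, from 141 and 12 UMIs. Between the library labelled Klf4-floxed and Marfan 4 of 26 were higher, beside 12%, and 2 were lower, beside 11.8%. Lims2 stood at 237 CPM in the library labelled Klf4-floxed, against 150 CPM in endothelium of Marfan.

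The valve interstitial or chondrocyte class had 1 of 25 genes higher in Marfan than in control, beside 3.72%, and 0 lower, beside 6.68%. Between the library labelled Klf4-floxed and Marfan it had 0 of 26 higher, beside 2.5%, and 2 lower, beside 3.74%. The genes concerned were Itgb4 in both comparisons, at 5.37 CPM in Marfan, against 1.67 CPM in control, which passed the 5 CPM filter through Marfan alone, and Pxn, at 9.80 CPM in the library labelled Klf4-floxed and 15.8 CPM in Marfan. Lymphatic endothelium had 4 of 27 higher in Marfan than in control, beside 10.4%, and 5 lower, beside 18.8%. Between the library labelled Klf4-floxed and Marfan it had 1 of 27 higher, beside 8.97%, and 5 lower, beside 10.3%. Itgb3 stood at 61.5 CPM in the lymphatic cells of Marfan, against 23.8 CPM in control, and at 36.8 CPM in the library labelled Klf4-floxed. Itga8 stood at 29.8 CPM in Marfan, against 2.07 CPM in control, and Itgb5 at 27.8 CPM, against 9.30 CPM. The 12 SMC markers summed to 234, 1371 and 199 CPM in the lymphatic cells of the Klf4-floxed, Marfan and control libraries, with 11, 12 and 11 of them detected and Myocd at 0 in the first and last, and their part was not tested.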

How the data were processed

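Single-cell RNA was measured in 6 libraries, 1 per genotype and sorted fraction. The authors deposited raw UMI counts per gene and barcode, made with Cell Ranger 6.1.2, per the file headers, on genome build mm10, as the submitters' processing notes have it. Which annotation release was used is not given in the sources used here. Of 55402 features, 36715 had no UMI. The columns of per-sample values left unused numbered 0.

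Barcodes entered with 1000 UMIs and 500 genes or more and no more than 10% mitochondrial UMIs. Doublets were called per library with Scrublet in scanpy 1.11.5, which removed 2276 of 41759 cells. Its automatic threshold served in 1 library, the lineage-negative Marfan one, where 70 of 7105 cells were removed. It marked under 0.5% of cells in the others, where the highest scores, 0.8% for each 1000 cells, were taken out. That removed 314 of 6263 cells in the lineage-negative Klf4-floxed library and 163 of 4510 in the lineage-negative control. The part of this difference in the ratios between lineage-negative libraries was not tested. Cells were scaled to 10000 UMIs and clustered with leidenalg 0.10.2 at a resolution of 1, on 2000 variable genes without the 36 members, 30 principal components and 15 neighbours. Of 23 clusters, 14 were named from 18 marker sets, and the conditions that left a cluster unnamed were set with the data known. Cluster 7 scored highest for SMC, at 0.85, and 0.55 for modulated SMC. It was named modulated SMC by a further condition, that more modulated than SMC markers were among its leading genes. Cluster 22 met the Schwann cell rule, but Chgb and Dct led it, and it was treated as unnamed.

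UMIs of all cells of a class were summed within a library and given as CPM with exact Poisson 95% intervals. Ratios of CPM have exact conditional binomial 95% intervals. Both cover counting error only, since 1 library stood for a group. A ratio of at least 1.5-fold was counted among genes with at least 5 CPM in either group. The ratios and their counting were tested on simulated counts with known folds. Gene positions were taken from GENCODE M21 on mm10 and promoters from RefSeq, GRCm38.p6.

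A gene of the list has its level in each library where it reached 20 CPM. It is described in detail when it passed 1.5-fold or had 1 of the 3 highest levels of its role group. Other lists are named by up to 4 genes with the widest ratios at 20 CPM or more. The members, lists, markers and comparisons were chosen with earlier results of these data known.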

Additional observations from a re-analysis of the deposited data

Results flagged for a closer look

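Itga8 differed in opposite directions between cell classes of the lineage-negative libraries. In fibroblasts it stood at 139 CPM in the library labelled Klf4-floxed and 90.4 CPM in Marfan, a log2 ratio of 0.62. In lymphatic endothelium it stood at 4.52 CPM in the library labelled Klf4-floxed and 29.8 CPM in Marfan, from 7 and 45 UMIs, a log2 ratio of -2.72. The 2 ratios lay 3.33 apart on the log2 scale. With 1 library per group this difference was not tested. SMC markers summed to 234 CPM in the lymphatic cells of the library labelled Klf4-floxed, 1371 CPM in Marfan and 199 CPM in control, where Itga8 stood at 2.07 CPM. Their part in the value was not tested. Doublet removal took out 70 of 7105 cells in the lineage-negative Marfan library and 314 of 6263 in the Klf4-floxed one. Its part was not tested either.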

How the results depend on the processing

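No paired analysis was possible because each group was 1 library and carried no replicate number. Of the values of single genes under the alternatives, 1365 stayed within their counting interval of the reported value, 469 moved beyond it and 6 turned round. Alternatives that leave out or isolate a cluster, or compare modulated cells with named SMC only, were chosen after seeing the data. For Marfan against control, the count of higher genes was 1 without the modulated cluster, in cells thinned to 2000 UMIs, with each cell weighed alike and at 2-fold, where 1.73% to 4.02% of all genes were. The count of lower genes was 0 in clusters named SMC or modulated SMC, without the modulated cluster, under median-of-ratios scaling and at 2-fold, beside 0.542% to 2.84%. With no filter but 1 UMI in each group, 5 of 33 were higher, beside 11.3%. For Klf4-floxed against Marfan that setting gave 3 of 36 lower, beside 6.57%, and the median log2 ratio was -0.085 in modulated cells. For Klf4-floxed against control, 1 was higher at 4000 UMIs, at a mitochondrial limit of 5%, without the modulated cluster, with the total taken without mitochondrial and ribosomal genes, and at 2-fold, beside 1.67% to 4.04%. There 1 was lower at 500 UMIs, at a limit of 20%, without cluster 8, without the modulated cluster, after thinning and without those genes in the total, beside 1.54% to 2.93%, and in modulated cells only, beside 14.7%. With no filter 4 were higher, beside 10.3%, and 2 lower, beside 7.44%, and Itga5 in modulated cells was -0.48. For modulated against other cells, the top against the bottom of the 5 parts gave 4 lower in the library labelled Klf4-floxed, beside 10.4%, and 0 in control, beside 5.74%, with Itga1 at 0.051 and Itga5 at 0.54 in the Klf4-floxed library and Itga7 at 0.28 in control. Thinning gave 8 higher in Marfan, beside 10.3%, and Itga7 at 0.20 in control. Weighing cells alike gave 3 lower in Marfan, beside 6.68%, and 5 higher and 3 lower in control, beside 16.3% and 13.7%. Thinning gave 2 higher and 1 lower in Marfan fibroblasts, beside 4.88% and 6.04%, and Bcar1 at -0.78 in Marfan endothelium, where control held 41 cells. The class with the highest level was the same for all 36 genes at resolution 0.5. The log2 ratio of Marfan over control ran from 1.28 to 3.16 for Itga11, 0.11 to 0.96 for Itga5, 0.39 to 0.76 for Itga3 and -1.05 to -0.53 for Itga4. Apart from changes that follow from the setting itself, the cause was not tested.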
